A study of Mus musculus with 24 samples.

Results

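The data described here are the levels of 9 genes that build the cell contacts of the blood-brain barrier, Cldn5, Ocln, Tjp1, Cdh5, Cgnl1, Lsr, Marveld2, Ctnnb1 and Pecam1. They were taken by symbol from tables of 20555 genes, and all 9 were found. The tables hold RNA sequencing of cells sorted from mouse brain slices that had been given PBS (phosphate-buffered saline, the control) or tumour exosomes, small vesicles released by cells, at 5 µg per slice over 2 days. The exosomes carried the green membrane dye PKH67 and came in 3 kinds, named wild type (WT), knockout 1 (KO1) and knockout 2 (KO2). The series title names tumour exosomal CEMIP, but the labels do not say which gene each knockout lacks. The knockouts concern the exosomes and not the slices. Endothelial cells were gated as CD45- CD31+, and microglia, the resident immune cells of the brain, as CD45+ with low CD11b and CD49d. Endothelial values were present for 3 PBS libraries, 2 WT libraries, 3 KO1 libraries and 2 KO2 libraries, and microglia values for 2, 3, 3 and 3. Endothelial WT C and KO2 A and microglia PBS C were not analysed here. The labels speak of exosome-positive cells for the PBS samples too, so the gate applied to those is unclear. Strain and age of the mice are not given in the sources used here, and nothing says whether the letters A, B and C were separate animals, so p-values here reflect how much the samples vary among themselves, whether that variation is biological or technical.

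Endothelial cells of brain vessels are sealed to each other by tight junctions, and this seal keeps blood-borne molecules out of the tissue. Claudins and occludin span the membrane, scaffold proteins such as ZO-1 tie them to actin beneath, and adherens junctions built on VE-cadherin hold neighbouring cells together. Where 3 cells meet, angulin-1 and tricellulin close the remaining gap. Microglia do not form such a seal and served as the contrast.

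Upstream sequences are shown for the 3 genes on which the results turn: Cldn5, the most abundant of the 9 and the steadiest across libraries, and Ocln and Marveld2, the 2 with the widest spread. Each line gives the 250 bases before the start of transcription, 5′ to 3′ on the strand of the gene, from RefSeq on GRCm38.p6, with capitals at any match to the searched motifs. For Cldn5 the stretch is chr16:18776597-18776846 on the plus strand, for Ocln it is chr13:100552719-100552968 on the minus strand, and for Marveld2 it is chr13:100616972-100617221 on the minus strand.
Cldn5: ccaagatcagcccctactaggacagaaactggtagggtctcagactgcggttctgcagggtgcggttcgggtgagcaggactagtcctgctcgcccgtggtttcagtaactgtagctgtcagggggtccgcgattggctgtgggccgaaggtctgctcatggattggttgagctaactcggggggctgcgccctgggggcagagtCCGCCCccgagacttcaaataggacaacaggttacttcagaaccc
Ocln: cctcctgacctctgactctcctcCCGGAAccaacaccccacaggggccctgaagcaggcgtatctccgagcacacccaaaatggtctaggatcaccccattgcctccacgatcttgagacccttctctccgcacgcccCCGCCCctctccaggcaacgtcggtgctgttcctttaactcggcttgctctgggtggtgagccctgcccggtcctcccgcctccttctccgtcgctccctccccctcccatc
Marveld2: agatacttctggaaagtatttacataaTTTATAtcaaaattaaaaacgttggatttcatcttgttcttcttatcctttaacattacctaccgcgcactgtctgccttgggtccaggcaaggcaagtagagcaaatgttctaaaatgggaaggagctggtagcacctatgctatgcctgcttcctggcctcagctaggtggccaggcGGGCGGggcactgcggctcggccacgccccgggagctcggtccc
The motifs searched on both strands were the GC box GGGCGG, the E-box CAGGTG, the ETS core CCGGAA, the TATA box TATAAA, the forkhead motif TGTTTAC and the TCF/LEF motif CTTTGA, which do not overlap each other in the stretches shown. Cldn5 held 1 GC box, Ocln 1 GC box and 1 ETS core, and Marveld2 1 GC box and 1 TATA box. RefSeq lists a second start for Ocln and for Marveld2, and the window shown is the one farther upstream. The other window of Ocln, chr13:100552499-100552748, held 1 GC box, 2 E-boxes and no ETS core, and that of Marveld2 held the same matches as the one shown. Of 32851 mouse promoter windows of the same length, 32.7% held a GC box, 12% an ETS core and 12.4% a TATA box. The GC share was 59.6% for Cldn5, 64.0% for Ocln and 50.4% for Marveld2, against a median of 52.4%. Among the other members the E-box stood out in Lsr, with 4 matches where 17.2% of windows held any. A match is a string of letters and not evidence of binding.

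The deposited values are variance-stabilised log2 counts, which compress low values towards a floor. For endothelial cells the transform could be inverted exactly, so levels are given as recovered normalised counts (reads scaled between libraries), and tests were run on the deposited log2 values. Libraries totalled 25.7 to 28 M normalised counts, and the step size of low values puts their depth at 18.3 to 35.7 M reads. The endothelial identity of the sort was measured with 12 endothelial markers that are no members: their counts summed to 140125 to 182825 per library. Microglia markers summed to 71.68 to 2089, and P2ry12, which defines microglia, was at 0 in all 10 libraries. Markers of choroid plexus and ependyma, the epithelium that makes cerebrospinal fluid and the lining of the ventricles, did not stay low. Their sums were 964.9 to 7385 in PBS libraries, 205190 and 233407 in WT, 201747 (A), 359990 (B) and 6727 (C) in KO1, and 312422 (B) and 22843 (C) in KO2. Of these 11 markers, 7 to 9 exceeded 100 counts in the libraries with high sums and 1 to 3 in the others. Because the libraries are bulk samples, fewer expressing cells and less RNA per cell cannot be told apart.

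All 9 genes were above the floor in all 10 endothelial libraries, so none entered the tests through 1 group. Per kilobase of the longest coding transcript, Cldn5 stood highest at a mean of 44439 normalised counts per kb (range over libraries 37904 to 53501). Ctnnb1 (15731, 12014 to 20903) and Pecam1 (13910, 12386 to 16333) followed and overlapped each other, and Cdh5 (5292, 4362 to 6172) lay below both. Cgnl1 (2223, 1118 to 3512) and Lsr (2106, 1124 to 2888) had overlapping ranges. Ocln (990.2, 415.4 to 1690), Tjp1 (882.3, 714.8 to 1071) and Marveld2 (593.7, 38.97 to 1083) shared the bottom of the order, and their ranges overlapped too. The genes also differed in how steady they were. The coefficient of variation over the 10 libraries was 10.3% for Cldn5, 10.9% for Cdh5 and 10.9% for Pecam1, against a median of 33.8% over the 4821 genes with a mean of at least 1000 normalised counts. Only 0.892% of those genes varied less than Cldn5. At the other end stood Ocln at 40.8% and Marveld2 at 53%, and 83.7% of the genes varied less than Marveld2. Tjp1 (16%), Ctnnb1 (21.1%), Lsr (28.8%) and Cgnl1 (33.5%) lay between. These shares were not matched for level, and the mean count was 62926 for Cldn5 and 1847 for Marveld2.

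Cldn5 encodes claudin-5, the claudin that seals brain endothelium against small molecules (gene ID 12741, chr16:18776847-18778262). It had 65907, 75757 and 58331 normalised counts in the PBS libraries (A, B, C), 62276 and 58368 with WT exosomes (A, B), 66380, 56822 and 63910 with KO1 (A, B, C) and 53672 and 67837 with KO2 (B, C). The same order is kept for every gene. The groups overlapped throughout, and the highest library was 1.41 times the lowest. Group means were 66665 ± 8738 (SD, n = 3) for PBS, 60322 ± 2764 (SD, n = 2) for WT, 62371 ± 4961 (SD, n = 3) for KO1 and 60755 ± 10016 (SD, n = 2) for KO2.

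Occludin, from Ocln, is a membrane protein of the tight junction strand that regulates the barrier (gene ID 18260, chr13:100496504-100552718). Its counts were 5894, 5372 and 3716 with PBS, 2239 and 1683 with WT, 2874, 3166 and 4056 with KO1, and 6848 and 4275 with KO2. Both WT libraries lay below all the other 8 libraries, KO1 lay between WT and KO2, and KO1 and KO2 did not overlap. The means were 4994 ± 1137 (SD, n = 3) for PBS, 1961 ± 392.9 (SD, n = 2) for WT, 3365 ± 615.6 (SD, n = 3) for KO1 and 5561 ± 1819 (SD, n = 2) for KO2. Set within letters, WT over PBS was 0.38 for A and 0.313 for B, KO1 over WT was 1.28 for A and 1.88 for B, and KO2 over WT was 4.07 for B.

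Marveld2 encodes tricellulin, the sealing protein of contacts between 3 cells and a relative of occludin that lies on the same strand of chromosome 13 (gene ID 218518, chr13:100595957-100616971). It had 1763, 2452 and 2324 counts with PBS, 3370 and 2220 with WT, 1702, 926 and 2720 with KO1, and 870.9 and 121.2 with KO2. KO2 lay below every other library, and KO2 C stood far below the rest. KO1 overlapped both PBS and WT. The mean was 2179 ± 366.3 (SD, n = 3) for PBS, 2795 ± 813.3 (SD, n = 2) for WT, 1782 ± 899.5 (SD, n = 3) for KO1 and 496.1 ± 530.1 (SD, n = 2) for KO2. Lsr encodes angulin-1, which recruits tricellulin to these contacts (gene ID 54135, chr7:30957770-30973469). It had 6257, 5020 and 5205 counts with PBS, 2436 and 4780 with WT, 4843, 2760 and 4729 with KO1, and 6208 and 3395 with KO2. Lsr did not follow Marveld2: it was lowest in WT A, where Marveld2 was highest.

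Below the membrane, Tjp1 encodes ZO-1, the scaffold that links claudins and occludin to actin (gene ID 21872, chr7:65296165-65527850). Its counts were 7449, 6035 and 6574 with PBS, 5053 and 5645 with WT, 5331, 5039 and 7468 with KO1, and 7549 and 6050 with KO2. WT lay below PBS with no overlap, but KO1 spanned the whole WT range and beyond. Cgnl1 encodes paracingulin, a cytoplasmic protein of tight and adherens junctions that controls small GTPases (gene ID 68178, chr9:71626507-71809300). It had 15224, 13466 and 16830 counts with PBS, 11755 and 7551 with WT, 16572, 7909 and 23719 with KO1, and 17443 and 19642 with KO2. WT B and KO1 B were the 2 lowest libraries and KO1 C the highest.

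Of the adherens junction genes, Cdh5 encodes VE-cadherin, the adhesion receptor particular to endothelium by textbook knowledge (gene ID 12562, chr8:104101613-104144504). It had 22718, 21162 and 22748 counts with PBS, 24657 and 18411 with WT, 21494, 17427 and 23161 with KO1, and 20589 and 19059 with KO2, with all groups overlapping WT. Ctnnb1 encodes beta-catenin, which binds cadherin tails and also carries the Wnt signal that maintains the barrier (gene ID 12387, chr9:120933400-120960507). It had 71461, 53654 and 65108 counts with PBS, 44788 and 43527 with WT, 57925, 47365 and 66101 with KO1, and 44263 and 75730 with KO2. The WT values stood next to each other below every PBS value, while KO2 B lay within the WT range and KO2 C was the highest of all 10. Pecam1 encodes CD31, an adhesion molecule of the lateral border that was also used to gate these cells (gene ID 18613, chr11:106654213-106715281). Its counts were 42620, 48788 and 42939 with PBS, 56200 and 51613 with WT, 43954, 51649 and 54125 with KO1, and 42873 and 43879 with KO2. WT lay above PBS and above KO2. KO1 overlapped both PBS and WT, and its lowest value (43954) lay just above the highest of KO2 (43879).

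**Figure D1:**
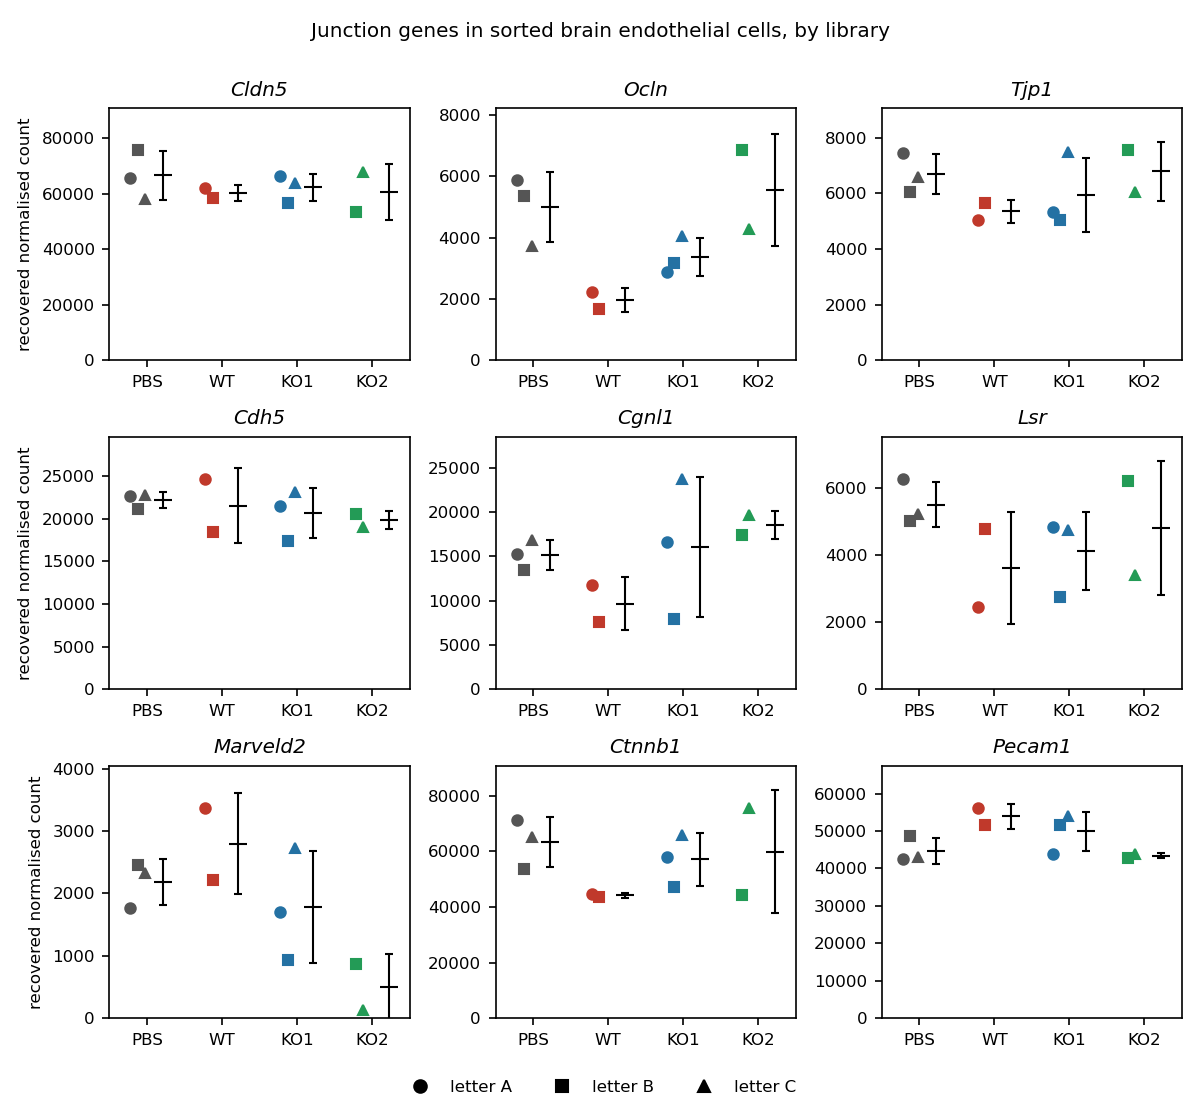
Recovered normalised counts of the 9 junction genes in the 10 endothelial libraries (linear axis from 0, 1 panel per gene), by treatment of the slice. Symbols give the letter of the library, and horizontal and vertical bars give the group mean and its SD. Cldn5, Cdh5 and Pecam1 stay within 1.41 times of their lowest value, Ocln is lowest in both WT libraries (1683 and 2239) and Marveld2 lowest in both KO2 libraries (121.2 and 870.9).

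WT exosomes against PBS asks whether junction transcripts differ in endothelial cells that had met the exosomes. With WT exosomes Ocln stood at 0.397 times its PBS level (95% interval 0.244 to 0.647, limma on log2 of the recovered count plus 10), while Cldn5 stood at 0.91 times (0.681 to 1.21). Ctnnb1 stood at 0.701 times (0.474 to 1.04), Cgnl1 at 0.624 times (0.339 to 1.15), Lsr at 0.625 times (0.344 to 1.13) and Tjp1 at 0.802 times (0.558 to 1.15). On that scale the median over all genes was -0.15 and the value of Ocln was -1.33 in log2. On the deposited log2 scale the difference of Ocln was -0.36 (SE 0.0975, limma adjusted p = 0.348), which ranked 130 among 11012 genes by p. None of the 9 members passed the adjusted threshold of 0.05, as none of the 11012 genes tested did (0%). Ocln was the 1 member with an unadjusted p under 0.05, where 10.1% of all genes had one. The other intervals included no difference: the limits for Cldn5 were -0.44 and 0.22 and those for Cdh5 were -0.25 and 0.19. By sign alone, 7 of 9 members lay lower with WT, where 54.6% of all genes did, and their median difference was -0.12 against -0.012 over all genes. Without overlap between the groups, 5 members lay below PBS (Ocln, Tjp1, Cgnl1, Lsr and Ctnnb1), a position that 19.5% of all genes took, and Pecam1 lay above, as 15.3% did. Single libraries carried some of these values: Lsr was at -0.066 without WT A, against -0.20 with it, and Cgnl1 at -0.18 without WT B, against -0.32.

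**Figure D2:**
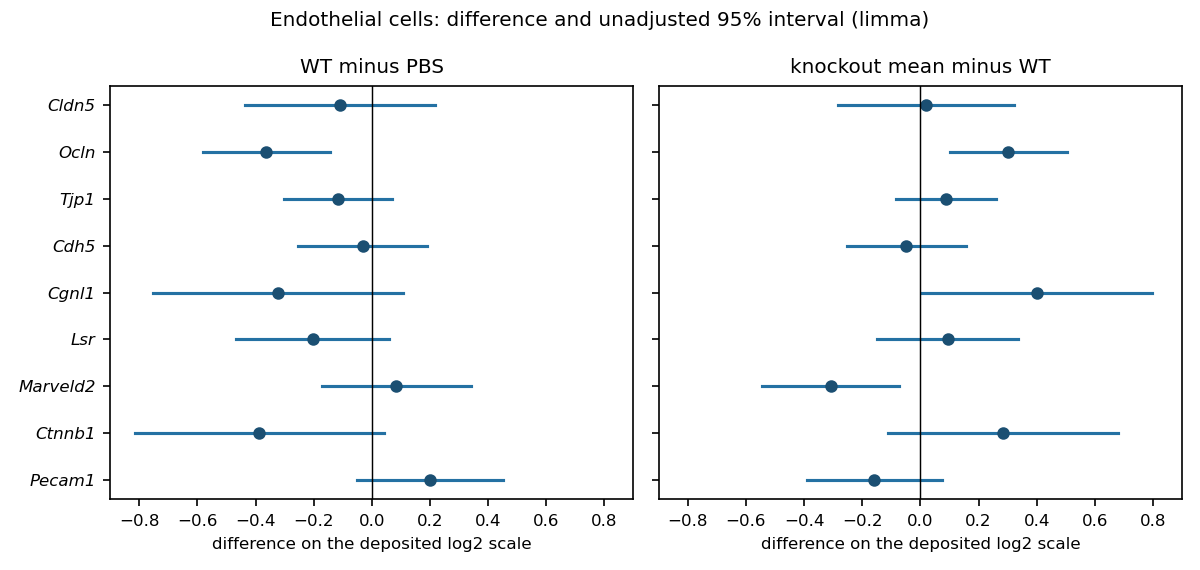
Differences of the 9 junction genes in endothelial cells on the deposited log2 scale, WT minus PBS (left) and the average of both knockouts minus WT (right). Points are limma estimates and bars their unadjusted 95% intervals. The interval of Ocln lies below 0 on the left (-0.58 to -0.14) and above 0 on the right (0.10 to 0.50), and that of Marveld2 lies below 0 on the right (-0.55 to -0.074).

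Knockout exosomes against WT asks whether the difference depends on what the knockouts removed. Ocln was 2.18 times as high with knockout exosomes as with WT (95% interval 1.39 to 3.42, limma on log2 of the recovered count plus 10), and all 5 knockout libraries lay above both WT libraries. That position was taken by 4.47% of all genes, and no member took the opposite one, as 4.67% did. Marveld2 went the other way at 0.272 times (0.0941 to 0.784), although KO1 overlapped WT. Its value moved with the KO2 libraries, to 0.437 times (0.209 to 0.916) without KO2 C and 0.169 times (0.0781 to 0.364) without KO2 B. In plain ratios of group means, KO1 was at 0.638 and KO2 at 0.177 of WT. Cgnl1 was 1.74 times as high (0.994 to 3.06) and Cldn5 1.02 times (0.779 to 1.33). On the deposited log2 scale the difference was 0.30 for Ocln (SE 0.0899, limma adjusted p = 0.39), -0.31 for Marveld2 (SE 0.105, adjusted p = 0.445) and 0.40 for Cgnl1 (SE 0.177, adjusted p = 0.556). These 3 members had an unadjusted p under 0.05, where 8.84% of all genes did. Again 0 of 9 members and 0 of 11012 genes (0%) passed after adjustment. Of the members 6 of 9 lay higher with the knockouts, where 52.2% of all genes did. The WT group is shared by this comparison and the one with PBS, so a low WT value moves both. Without WT B the difference was 0.26 for both Ocln and Cgnl1, and without any exosome library lettered B that of Ocln was 0.205, neither with an unadjusted p under 0.05 for Ocln.

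The 2 knockouts differed from each other most in the same pair of genes. Marveld2 was 4.81 times as high with KO1 as with KO2 (95% interval 1.52 to 15.2), and Ocln was at 0.616 times (0.378 to 1). On the deposited log2 scale KO1 minus KO2 was 0.30 for Marveld2 (SE 0.114, limma adjusted p = 0.708) and -0.22 for Ocln (SE 0.0975, adjusted p = 0.777). These were the 2 members with an unadjusted p under 0.05, where 6.38% of all genes had one, and 0 of 9 members and 0 of 11012 genes (0%) passed after adjustment. Marveld2 and Pecam1 lay higher with KO1 with no overlap, as 7.86% of genes did, and Ocln lay lower, as 8.81% did. The Marveld2 value rests on KO2 C: without it the difference was 0.17, and KO1 was 1.86 times as high as KO2 (0.729 to 4.73). Without KO2 B the ratio was 12.5 (4.71 to 33), and there the limma adjusted p on log2 of the count plus 10 was 0.0411, with 82 of all 11012 genes passing, and with the lone KO2 library assumed to vary like the other groups. The Ocln value rests on KO2 B in the same way, and without that library it was -0.10. Across the 4 groups, limma's F test gave an adjusted p of 0.462 for Ocln and 0.514 for Marveld2. These 2 members had an unadjusted p under 0.05 in it, where 8.47% of genes did, and 0 of 9 members and 0% of genes passed after adjustment. With the letter as a block, the members with an unadjusted p under 0.05 were 0 in KO1 minus KO2 and 1 in the F test.

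Averaged over the 3 kinds of exosomes, 8 of 9 members lay lower than PBS by sign, where 54.6% of all genes did, and the member that did not was Pecam1 (1.09 times its PBS level, 95% interval 0.898 to 1.33). Their median difference was -0.095 on the deposited log2 scale, against -0.0086 over all genes. Ocln was at 0.668 times its PBS level (95% interval 0.461 to 0.968, with a limma adjusted p of 0.66 on the deposited scale), Marveld2 at 0.531 times (0.222 to 1.27), Lsr at 0.726 times (0.461 to 1.14) and Cldn5 at 0.92 times (0.738 to 1.15). On the deposited scale no member had an unadjusted p under 0.05, where 7.59% of all genes did, while on log2 of the count plus 10 Ocln did. None passed after adjustment on either scale (0% of genes on the deposited one), and no member separated the 7 exosome libraries from the 3 PBS libraries in either direction, where 1.51% of genes lay wholly below and 1.24% wholly above.

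The authors' deposited table is named for a likelihood ratio test across the treatments and lists 362 endothelial genes. Ocln is the 1 of 9 members in it, with a mean of 4012.34 normalised counts, p = 0.00129 and an adjusted p of 0.0408 in the authors' deposited table. The limma F test on the same libraries placed Ocln above the threshold, as given before. Cldn5, Cdh5, Tjp1, Cgnl1, Lsr, Marveld2, Ctnnb1 and Pecam1 are not listed there. For microglia the authors' deposited table lists 238 genes and 0 of 9 members.

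The choroid plexus markers bear on these values because that epithelium builds tight junctions of its own, with occludin among them. Both WT libraries were high in these markers and all 3 PBS libraries low, so for WT against PBS the 2 cannot be told apart. In the 5 libraries with choroid plexus sums of 201747 or more, Ocln was at 1683 and 2239 with WT. In the same 5 it was at 2874, 3166 and 6848 with the knockouts. In the 5 other libraries Ocln was at 5894, 5372 and 3716 with PBS, 4056 in KO1 C and 4275 in KO2 C. Of the libraries with high sums, all but KO2 B (6848) lay below each of the 5 others. The knockouts had libraries on both sides, so knockout against WT is not matched for these sums either. Cldn5 ranged from 53672 to 66380 in the libraries with high sums and from 58331 to 75757 in the 5 others. Of 3 other claudins, Cldn1 was higher in each of the 5 libraries with high sums than in any of the others. Cldn1 was at 0 to 104.2 with PBS, at 996.8 and 552.5 with WT, at 1339, 788.2 and 0 with KO1, and at 1132 and 0 with KO2. Cldn2 reached 274.1 (WT B), 221.2 (KO1 B) and 367 (KO2 B) and was at no more than 0.9004 elsewhere, WT A and KO1 A included. Cldn3 was at 15.02 in PBS B and 37.22 in PBS C and at 0 in the other 8 libraries, among them all 5 with high sums. The part of these cells in the levels of the 9 members was not tested. Pericyte and smooth muscle markers were also uneven, at 686.6 to 8138, with WT B (8138), KO1 B (7210) and KO2 B (6188) highest. Astrocyte markers summed to 41591, 18995 and 25382 with PBS, 16550 and 8967 with WT, 24298, 13338 and 20306 with KO1, and 19463 and 19402 with KO2. Of these 8 markers, Gja1 alone was at 40604, 18589 and 24820 with PBS and at 16454 and 7924 with WT. The sum was therefore mostly Gja1, a gap junction gene that is also among the contact genes below. Both WT libraries lay below all PBS libraries in this sum, as they did for Ocln, Tjp1, Cgnl1, Lsr and Ctnnb1. Because 1 gene set the sum, it says little about the other astrocyte markers. The part of astrocyte RNA in the values of the members was not tested.

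**Figure D3:**
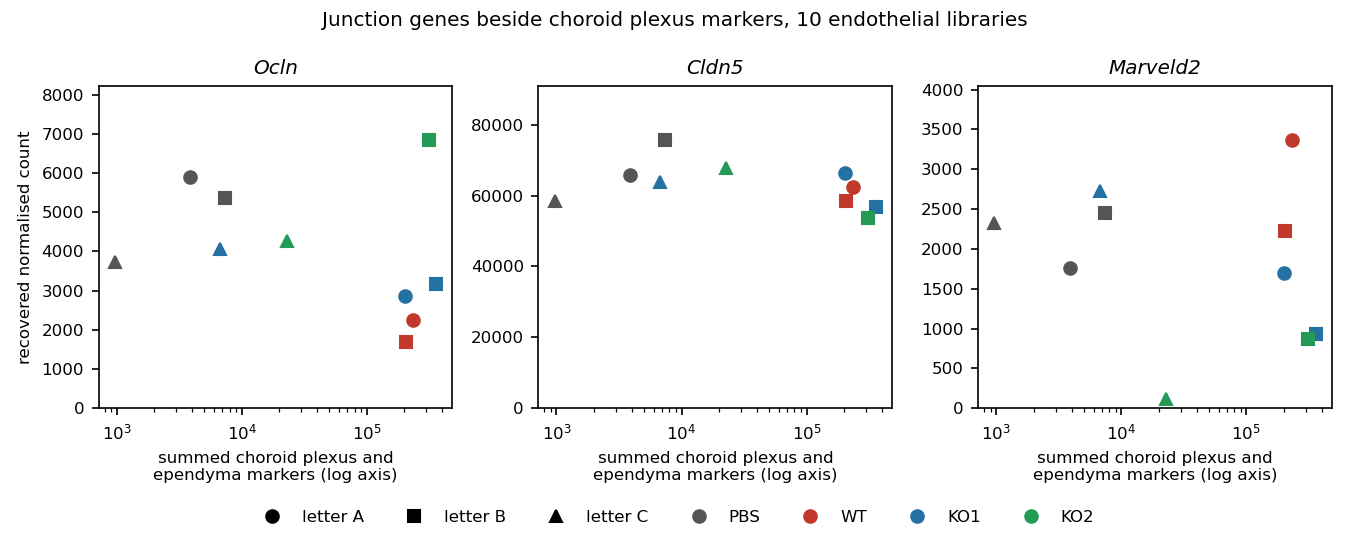
Recovered normalised counts of Ocln, Cldn5 and Marveld2 (linear axis from 0) against the summed counts of 11 choroid plexus and ependyma markers (log axis) in the 10 endothelial libraries. Colours give the treatment and symbols the letter. All 3 PBS libraries lie at sums of 7385 or less and both WT libraries at 205190 or more, while KO1 and KO2 lie on both sides, and at high sums Ocln runs from 1683 to 6848.

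The rest of the junction machinery was read from 5 lists with 78 genes, of which 77 were in the tables and 54 passed the filter on low values in endothelial cells. In WT minus PBS, 0 of the 54 passed after adjustment. By sign alone 54.6% of all genes lay lower in this comparison, with a median of -0.012. The counts for each list are to be read beside that share. Among tight junction membrane proteins 9 of 22 were tested, with 5 lower and 4 higher and a median of -0.12 on the deposited log2 scale. The lowest were Esam, an adhesion molecule of endothelial junctions (-0.44, SE 0.138, limma adjusted p = 0.378), and Jam2, a junctional adhesion molecule (-0.31). The highest were Cldn1 (0.32) and Cldn15 (0.18), a claudin at 219.6 to 328.9 counts with WT and at 0 to 82.09 with PBS. Esam was at 76212, 67435 and 66931 normalised counts with PBS, at 49588 and 44469 with WT, at 55647, 41851 and 56565 with KO1 and at 46132 and 52962 with KO2. All 7 exosome libraries lay below all PBS libraries for Esam, as they did for 2 of the 54 list genes and 1.51% of all genes. Its exosome mean minus PBS was -0.40 (limma adjusted p = 0.415). Esam was named as the lowest of its list in WT minus PBS, so this separation was partly selected.

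Plaque proteins gave 7 lower and 4 higher of 11 tested, with a median of -0.042. Amotl2 (-0.39) and Amotl1 (-0.26), angiomotin relatives that bind junctional scaffolds, were lowest, and Ybx3 (0.25), a Y-box factor held at ZO-1, and the polarity protein Pard6a (0.15) were highest. Of 10 adherens junction genes 6 were lower and 4 higher (median -0.084), between Ptprb (-0.22), the phosphatase that acts on VE-cadherin, and Vcl (-0.20), vinculin, at one end and Jup (0.14), plakoglobin, and Nectin1 (0.13) at the other. Other contact genes lay lower in 3 and higher in 4 of 7 (median 0.044) and held the widest differences. Gja1, the gap junction protein connexin 43, stood at -0.67 with 18589 to 40604 counts with PBS and 7924 and 16454 with WT, while Plvap, a diaphragm protein of leaky vessels, stood at 0.49 with 370.8 to 1473 counts with PBS and 2608 and 6973 with WT. Gja1 is also 1 of the 8 astrocyte markers summed before and made up most of that sum. The lower sum with WT is therefore no separate observation beside Gja1. For Plvap the limma adjusted p was 0.637, and it was at 8944, 3847 and 0 with KO1 and at 2383 and 539.5 with KO2. Choroid plexus vessels carry Plvap, and their part in its values was not tested. The other 2 contact genes named were Cd99l2 (-0.23) and Gja4 (0.17). Genes of signalling from junctions to actin lay lower in 12 and higher in 5 of 17 (median -0.051), where 54.6% of all genes lay lower. The kinase Rock2 (-0.35) and the GTPase Rap1b (-0.33) were lowest, and Rapgef2 (0.32) and Ccm2 (0.11) highest. Rapgef2 was at 0 to 1.816 counts with PBS, at 1577 in WT A and at 36.94 in WT B, so its value rests largely on 1 library.

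Over the 5 lists, 14 of 54 genes lay below PBS in both WT libraries without overlap and 9 above, shares to be read beside 19.5% and 15.3% over all genes. In 2 further genes, picked after their values were seen, the groups stood apart. Pdcd10, a cerebral cavernous malformation protein that stabilises endothelial junctions, had 4482, 4207 and 4092 counts with PBS, 1466 and 2067 with WT, 3665, 2652 and 3939 with KO1 and 3243 and 3412 with KO2. Both WT libraries were the lowest for Pdcd10, and all 5 knockout libraries lay between WT and PBS (knockout mean minus WT 0.23, limma adjusted p = 0.39). Of the 54 genes, 2 had every knockout library above WT and 2 had every one below, where 4.47% and 4.67% of all genes did. Every exosome library lay below PBS in 2 of the 54, where 1.51% of all genes took that position. Jam3 had 133.9 to 404.6 counts with PBS and 301.2 to 628.9 with KO1 but no more than 2.567 in either WT or KO2 library. The authors' deposited table lists 7 of the 77 genes in endothelial cells, among them Jam3 (adjusted p = 1.65e-07), Gja1 (5.9e-06), Ptprb (3.74e-05), Esam (0.000638), Ybx3 (0.0169) and Gjc1 (0.042). Values at or near 0 in single libraries are frequent in this table: of the 4633 genes with a mean of 100 to 1000 normalised counts, 57.7% were at the floor in at least 1 library.

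**Figure D4:**
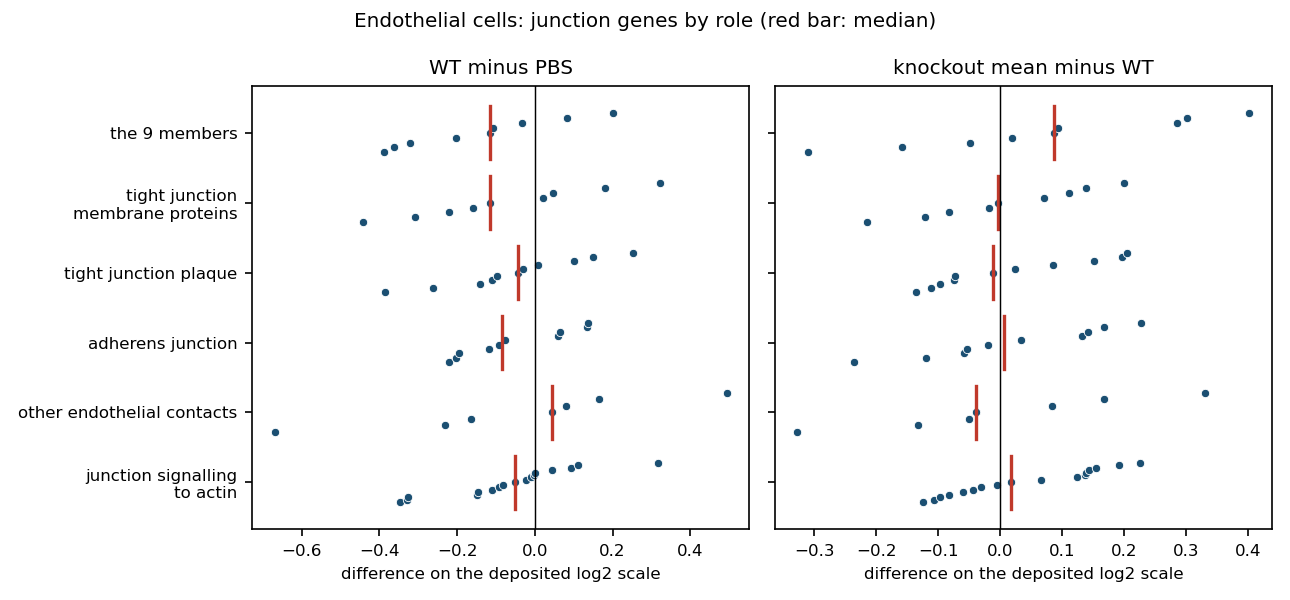
Differences on the deposited log2 scale in endothelial cells for the 9 members and for 5 lists of other junction genes, WT minus PBS (left) and knockout mean minus WT (right). Each point is a gene that passed the filter on low values, and red bars mark the median of a list. The medians in WT minus PBS run from -0.12 to 0.044, and single genes reach -0.67 (Gja1) and 0.49 (Plvap).

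In microglia 7 of the 9 members were near or at the floor of that table, whose 10 microglia markers summed to 20673 to 31897 counts per library. Of these 10 markers, 4 to 7 were at 100 or more and 1 to 3 at 0. Endothelial markers summed to 104.1 to 945.8, oligodendrocyte markers to 3196 to 9273 and border-associated macrophage markers to 702.2 to 6159. The part of endothelial RNA in the member values was not tested. Cldn5 lay 0.00 to 0.55 log2 units above the floor and was at the floor in 3 of 11 libraries. Pecam1 lay 0.00 to 0.74 above it and was above the floor in 10 of 11 libraries. Ocln, Lsr and Marveld2 were above the floor in 6 of 11 libraries each, and Cdh5 and Cgnl1 in 7. The 2 that stood clear of the floor in all microglia libraries were Ctnnb1, at 11599 to 17109 recovered normalised counts, and Tjp1, at 668.3 to 2805. Group means of Ctnnb1 were 13386 ± 2526 (SD, n = 2) for PBS, 13328 ± 933.9 (SD, n = 3) for WT, 14947 ± 1894 (SD, n = 3) for KO1 and 13893 ± 420 (SD, n = 3) for KO2. Those of Tjp1 were 1324 ± 515.1 (SD, n = 2), 1060 ± 208.8 (SD, n = 3), 1415 ± 734.4 (SD, n = 3) and 1757 ± 908.5 (SD, n = 3), and for both genes the groups overlapped. The tables of the 2 cell types were stabilised separately, so their levels stand side by side without a test. No member had an unadjusted p under 0.05 in any microglia contrast, where 5.24% of 10557 genes had one in WT minus PBS, 5.71% in exosome mean minus PBS, 3.27% in knockout mean minus WT and 3.41% in KO1 minus KO2. After adjustment 0 of 9 members and 0% of genes passed. The smallest member p was that of Cgnl1 for knockout mean minus WT (limma adjusted p = 1), a gene near the floor. Cdh5 lay above PBS in all 3 WT libraries, as 9.21% of genes did, but at 0.36 log2 units above the floor on average.

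**Figure D5:**
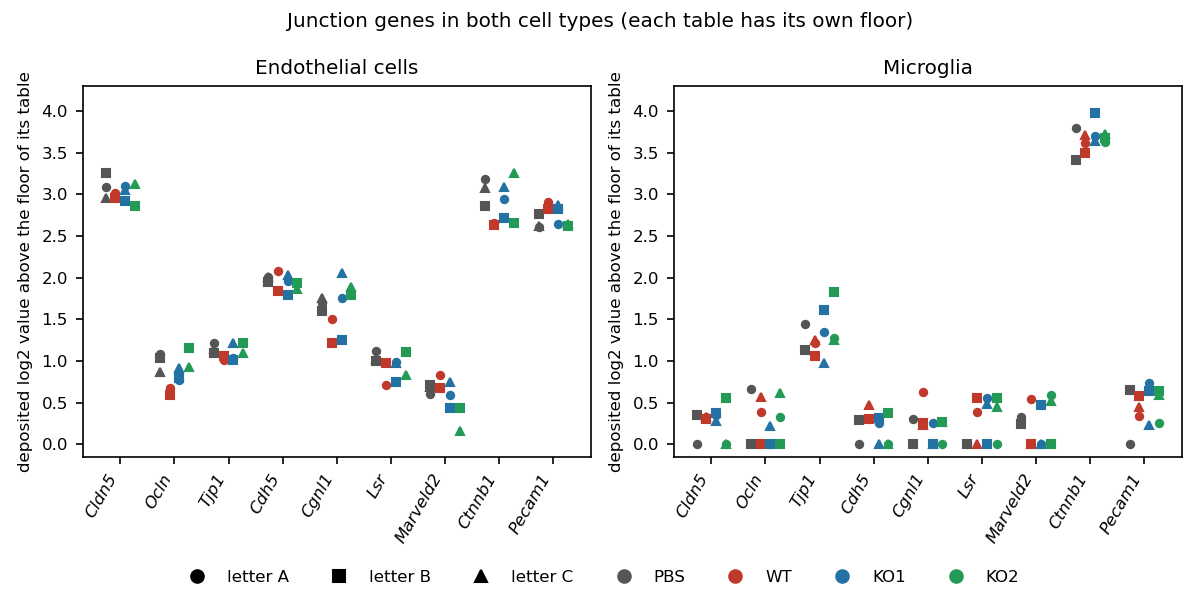
Deposited log2 values of the 9 junction genes above the floor of their table in 10 endothelial libraries (left) and 11 microglia libraries (right), coloured by treatment with symbols for the letter. A value of 0 means that the gene was at the floor of its table. In microglia Ctnnb1 (3.41 to 3.97) and Tjp1 (0.98 to 1.83) stand clear of the other 7, which stay at or under 0.74.

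Across the 10 endothelial libraries, the 3 genes closest in pattern to each of 3 members were taken by Pearson correlation of deposited log2 values over 11012 genes, as a description of libraries that share their scaling. For Cdh5 they were She (0.949), Trim39 (0.943) and Tchp (0.899), for Cldn5 they were Mob4 (0.858), Iftap (0.856) and Rps14 (0.841), and those for Ocln included Pvr (0.897) and Yy1 (0.891). She, at 4931 to 10512 normalised counts, and Pvr, at 4243 to 9946, were well covered. Iftap never exceeded 9.591 counts, so its likeness rests on few reads. No other member of the 9 was among the closest genes of another.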

How the data were processed

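RNA sequencing of sorted endothelial cells and microglia was deposited as 1 table per cell type. The authors' deposited values are log2 variance-stabilised counts, and the submitters' processing notes name Trimmomatic 0.38, FastQC 0.11.7, DESeq2 1.18.1 and Salmon 0.10.0 with the build GRCm38.p6, without their order. The authors also deposited tables named for a likelihood ratio test, with the mean normalised count as a signal, a fold change in log2, its standard error and test statistic as scores, and raw and adjusted p-values. Which groups that fold change compares is not stated in those tables or the labels, so it is not printed.

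Identifiers were matched to symbols in RefSeq (20537 of 20555). The endothelial transform was inverted in closed form, and the recovered mean over the authors' mean was 1.0000 for 362 genes. For microglia a curve through the authors' 238 means was used (largest held-out error 1.21% for means of 500 to 20000). Member counts are given there only for Tjp1 and Ctnnb1, with depth unknown, and the marker sums of microglia rest on the same curve. Stabilised values understate changes of low genes.

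Tests used limma 3.58.1 in R 4.3.3 with a mean-variance trend, 1 fit per cell type and no term for the letters. Genes above the floor in at least 5 of 10 endothelial or 6 of 11 microglia libraries entered (11012 of 14164 and 10557 of 13950 varying genes), with Benjamini-Hochberg adjustment over all of them. Fold changes with 95% intervals come from the same fit on log2 of the recovered count plus 10 and are unadjusted. The fit was tested on simulated data. The design had assumed 3 libraries in each of 8 groups, and 21 of 24 had values. Other settings tried were another filter, none, 2 pseudocounts, other scalings, no trend, fewer libraries and the letter as a block.

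The members, gene lists, filter and left-out libraries were chosen with earlier results of these data known. Named genes are all 9 members, and of each other list the 2 highest and 2 lowest in WT minus PBS. Genes listed in the authors' table or closest in pattern are also named, and Pdcd10 and Jam3 were chosen after their values were seen. Marker lists covered 9 cell types; besides those reported, in endothelial libraries the sums were 0 to 1291 for border-associated macrophages, 166.3 to 7609 for fibroblasts and meninges, 375.8 to 2853 for oligodendrocytes and 1.544 to 547.9 for neurons. Promoter entries were found for 7 of 9 members. Values of a few other genes are not reported here.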

Additional observations from a re-analysis of the deposited data

How the results depend on the processing

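No member passed the adjusted threshold in microglia under any alternative (lowest adjusted p 0.608). In endothelial cells 1 did in 1 setting, Marveld2 in KO1 minus KO2 on log2 of the count plus 10 without KO2 B (adjusted p 0.0411), among libraries left out in turn on that scale, which was added after seeing the data; members passing there ran from 0 to 1. All same-letter pairs correlated positively in their deviations from the group means (r from 0.019 to 0.231 in endothelial cells and from 0.007 to 0.365 in microglia). The letters were not taken to pair libraries, because not every pair exceeded 0.1. Microglia WT and KO1 did exceed it at all 3 letters (0.275, 0.169 and 0.365). This limit was a choice and does not show that pairing is absent. With the letter as a replicate block, 0 members passed in each contrast. Ocln was then at -0.39 in WT minus PBS and 0.34 in knockout mean minus WT. Members with an unadjusted p under 0.05 went from 2 to 0 in endothelial KO1 minus KO2 and from 2 to 1 in the F test. Over all microglia genes the block gave 16 calls in WT minus PBS, 26 in exosome mean minus PBS and 7 in the F test, against 0 without it.

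In endothelial cells the difference of Ocln in WT minus PBS kept its sign with an unadjusted p under 0.05 in the 30 alternatives that kept the gene (the stricter filter removed it), and its leave-one-out values ran from -0.43 to -0.32. In knockout mean minus WT they ran from 0.24 to 0.36. Signs of members near 0 were not stable: Cdh5 in WT minus PBS ran from -0.157 to 0.092 with single libraries left out and was 0.092 without WT B, KO1 B and KO2 B. In knockout mean minus WT with single libraries left out, Cldn5 ran from -0.046 to 0.085, Cdh5 from -0.172 to 0.077 and Lsr from -0.043 to 0.231. Cldn5 was -0.054 there without the C libraries. On log2 of the count plus 10, Cdh5 was 0.152 in WT minus PBS without WT B. In knockout mean minus WT on that scale Cdh5 was 0.132 and Lsr -0.160 without WT A, and Cldn5 was -0.023 without WT B and -0.061 without KO2 C. The cause was not tested. Over all endothelial genes, 17 passed in knockout mean minus WT without WT B, and with no filter 9 in WT minus PBS, 26 in exosome mean minus PBS, 6 in knockout mean minus WT, 3 in KO1 minus KO2 and 15 in the F test, against 0 in each. On log2 of the count plus 10, 286 passed in WT minus PBS and 327 in knockout mean minus WT without WT B, against 3 in each with all libraries. With 2 or 3 libraries a group, intervals for most members allow changes in either direction.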
